A study of Mus musculus with 12 samples.

Results

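The glucocorticoid receptor gene Nr3c1 and 7 genes known as its transcriptional targets (Tsc22d3, Fkbp5, Per1, Sgk1, Klf9, Errfi1 and Cdkn1a) were followed in mouse spleen. They are 8 of the 12393 genes to which the array's annotation assigns a probe set of their own, and all 21 probe sets naming them were taken, whatever their values. The study profiled total spleen RNA (5 µg per mouse) on Affymetrix MOE430A 2.0 arrays, 1 array per individual mouse, in 4 groups of 3 mice. Dusp1 -/- mice given Escherichia coli lipopolysaccharide (LPS) into the peritoneum at 10 µg per g body weight and killed 6 h later made up the first group, and untreated Dusp1 -/- mice were their controls. Dusp1 +/+ mice given the same LPS dose for the same time made up the third group, and untreated Dusp1 +/+ mice were their controls. The labels call the controls untreated, so effects of the injection and of LPS cannot be told apart. Strain, age, sex, the time of day at killing and the part of Dusp1 that was disrupted are not given in the sources used here. The groups are called knockout and wild-type here, after the labels.

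The glucocorticoid receptor is a hormone-activated transcription factor that is held in the cytoplasm by a chaperone complex, enters the nucleus when it binds corticosterone, and activates genes through DNA elements built of paired hexamers in inverted orientation. LPS raises circulating corticosterone in mice through the hypothalamus, pituitary and adrenal gland, and the hormone then restrains inflammation, in part through induced proteins. Among those proteins are Tsc22d3 (also called GILZ), which binds NF-kB and AP-1 subunits, and Dusp1 itself, a nuclear phosphatase of the p38 and JNK kinases. Nearly all of these targets are also induced by other signals, such as mitogens, stress kinases, p53 or the circadian clock.

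Promoter sequence was taken from RefSeq (build GRCm38.p6) for 17 start sites of 7 of the 8 genes, as the 250 bases before each start. The receptor hexamer AGAACA or its reverse complement TGTTCT lay in 4 of these windows, which belonged to Sgk1 and Tsc22d3, while 16.1% of all 32851 windows of that length hold it. An inverted pair of hexamers spaced by 3 bases, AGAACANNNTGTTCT, was found in a single member window, that of Sgk1, 189 bases before the start. Across all genes 3 windows hold it (0.00913%). The clock E-box CACGTG, present in 6.02% of windows, was found in a window of Fkbp5, 169 bases before the start, in a window of Per1, 166 bases before it, and in the Sgk1 window just named, where it overlaps a hexamer. The cyclic AMP element TGACGTCA, present in 1.55% of windows, was found once, in Errfi1, 51 bases before the start. The AP-1 site, TGACTCA or TGAGTCA (4.46% of windows), was in none of the 17. Both strands were searched, a match is a description of letters only, and binding was not measured. The windows are shown 5′ to 3′ on the strand of the gene, with those motifs in capitals. They were chosen to show the inverted pair (Sgk1), a lone hexamer (Tsc22d3), the cyclic AMP element (Errfi1) and the member called with LPS in both genotypes, which has none of these motifs (Cdkn1a).
Sgk1, chr10:21993640-21993889, + strand: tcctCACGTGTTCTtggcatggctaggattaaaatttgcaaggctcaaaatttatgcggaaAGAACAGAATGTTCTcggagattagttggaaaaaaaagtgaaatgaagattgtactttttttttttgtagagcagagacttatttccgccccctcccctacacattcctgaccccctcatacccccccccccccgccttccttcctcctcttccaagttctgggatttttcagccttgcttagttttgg
Tsc22d3, chrX:140600523-140600772, - strand: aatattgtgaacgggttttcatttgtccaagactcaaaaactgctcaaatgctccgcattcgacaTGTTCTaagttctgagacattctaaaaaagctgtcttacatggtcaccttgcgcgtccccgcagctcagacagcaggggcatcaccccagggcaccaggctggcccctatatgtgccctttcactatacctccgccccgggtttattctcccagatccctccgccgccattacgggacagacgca
Errfi1, chr4:150854820-150855069, + strand: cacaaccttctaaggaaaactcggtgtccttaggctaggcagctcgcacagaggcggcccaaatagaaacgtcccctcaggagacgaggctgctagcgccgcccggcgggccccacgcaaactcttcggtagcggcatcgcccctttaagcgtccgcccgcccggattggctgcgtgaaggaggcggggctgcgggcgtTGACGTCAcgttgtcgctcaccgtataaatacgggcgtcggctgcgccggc
Cdkn1a, chr17:29090729-29090978, + strand: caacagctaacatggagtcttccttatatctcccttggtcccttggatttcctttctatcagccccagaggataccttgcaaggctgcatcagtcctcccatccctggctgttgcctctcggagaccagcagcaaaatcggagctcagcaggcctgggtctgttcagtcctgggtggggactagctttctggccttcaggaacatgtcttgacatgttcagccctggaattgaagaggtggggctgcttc

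The deposited values are background-corrected, normalised intensities on a linear scale. Arrays of a group correlated at 0.965 to 0.989 in knockout LPS mice and 0.909 to 0.950 in knockout controls, and at 0.963 to 0.986 in wild-type LPS mice and 0.938 to 0.961 in wild-type controls (Pearson, log2 scale, over probe sets). B cell, T cell and red pulp macrophage markers were measured on every array, with 7 of 8, 7 of 7 and 10 of 10 measured markers above the intensity that 40% of probe sets stay under. Pancreatic enzyme genes, which spleen cells do not make, had a mean log2 intensity of 11.87 and 8.92 in knockout controls 1 and 3 and 12.97 in wild-type control 1, against 5.18, 5.69 and 5.08 in the other controls and 4.33 to 5.37 on the 6 LPS arrays. A liver list ran from 6.68 to 9.47 in knockout LPS mice and 4.64 to 10.18 in knockout controls. It ran from 6.13 to 8.46 in wild-type LPS mice and 4.54 to 7.79 in wild-type controls. A lung list ran from 4.64 to 6.97 in knockout LPS mice and 4.36 to 7.06 in knockout controls. Its range was 4.58 to 5.00 in wild-type LPS mice and 4.46 to 5.45 in wild-type controls. The part of such RNA in the values was not tested. Wild-type controls 2 and 3 had a male pattern (Xist at 35 and 47, Eif2s3y at 316 and 53), and the other 10 arrays a female one (Xist from 1101 to 3949, Eif2s3y from 7 to 10). Dusp1 did not check the genotype labels. It had 4963, 2948 and 4996 in knockout LPS mice and 677, 1528 and 1443 in knockout controls, against 2248, 2142 and 2116 in wild-type LPS mice and 479, 1354 and 627 in wild-type controls, so it was not lower in the mice labelled knockout. Where its probe set lies relative to the disruption is not known here.

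Nr3c1, the receptor gene itself, did not pass the test after LPS in either genotype. Its brightest probe set (1421867_at) read 481, 283 and 615 in knockout LPS mice, against 341, 806 and 269 in knockout controls. In wild-type LPS mice it read 587, 205 and 166, against 482, 621 and 298 in wild-type controls. The LPS and control mice overlapped in both genotypes, and wild-type LPS mouse 1 was near the controls while the other wild-type LPS mice were below all of them. The log2 difference, LPS minus control, was 0.06 ± 0.54 in knockout (SE, n = 3 against 3, limma adjusted p = 0.972) and -0.72 ± 0.54 in wild-type (adjusted p = 0.573). A second set (1460303_at) gave 258, 85 and 54 in wild-type LPS mice against 408, 475 and 174 in wild-type controls, a log2 difference of -1.61 ± 0.55 (SE) that did not pass (adjusted p = 0.125). The same set gave 208, 156 and 347 in knockout LPS mice and 240, 224 and 177 in knockout controls, a log2 difference of 0.08 ± 0.55. The third set was dim, from 16 to 79 over the 12 arrays, and passed no test. In whole spleen, fewer cells of a type and less RNA per cell cannot be told apart, here and in all that follows.

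Cdkn1a, which encodes an inhibitor of cyclin-dependent kinases that halts the cell cycle and is induced by p53, by stress signals and by glucocorticoids, was the member that rose with LPS. Its brightest set (1424638_at) read 1013, 1848 and 894 in knockout LPS mice, against 93, 159 and 126 in knockout controls. It read 549, 647 and 587 in wild-type LPS mice, against 95, 110 and 148 in wild-type controls. Every LPS mouse was several-fold above every control of its genotype. The rise was 9.65-fold in knockout (log2 3.27 ± 0.30, SE, n = 3 against 3, limma adjusted p = 0.000107) and 5.13-fold in wild-type (log2 2.36 ± 0.30, adjusted p = 0.00129). Averaged over genotypes it was 2.81 ± 0.21 on the log2 scale (adjusted p = 1.34e-05). The second set (1421679_a_at) read 276, 727 and 410 in knockout LPS mice and 29, 71 and 54 in knockout controls, against 123, 174 and 216 in wild-type LPS mice and 40, 30 and 47 in wild-type controls. It rose as well, by 3.18 ± 0.41 in knockout (adjusted p = 0.000816) and 2.12 ± 0.41 in wild-type (adjusted p = 0.0115), both log2. In wild-type mice this second set no longer passed when control 2 or LPS mouse 3 was removed, when the arrays of male pattern were removed, or when sex pattern entered the model (adjusted p up to 0.117).

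**Figure D1:**
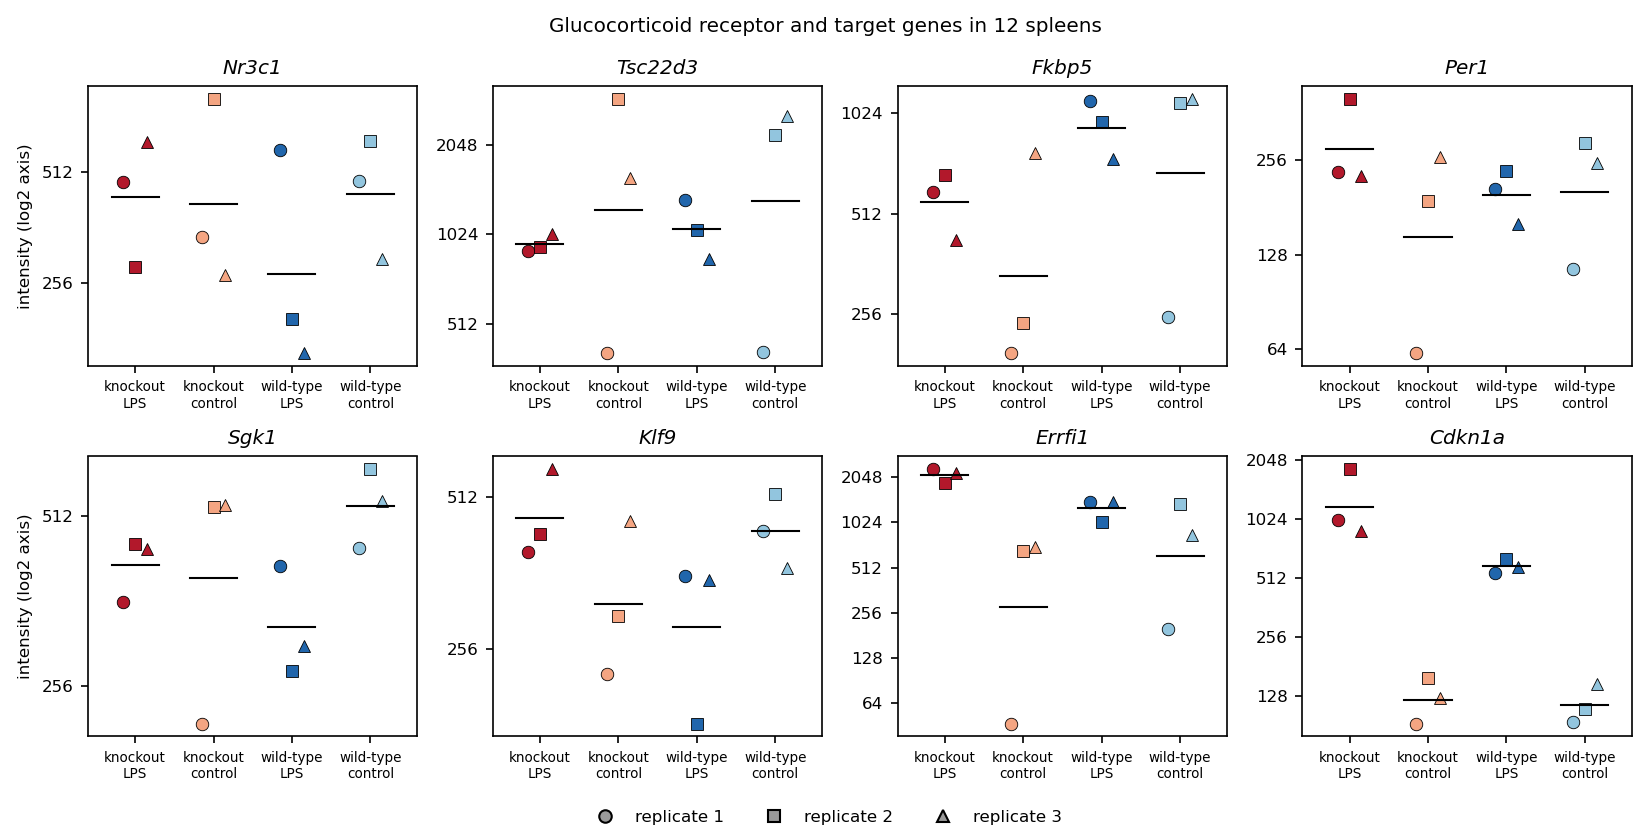
Intensity of the brightest probe set of each of the 8 genes on all 12 arrays (vertical axis, log2 spacing, in intensity units). Groups run from knockout LPS to wild-type control, each symbol is 1 mouse with its shape giving the replicate number, and bars are geometric means; Cdkn1a is the panel in which LPS and control mice are far apart in both genotypes, and Tsc22d3, Fkbp5, Per1 and Errfi1 have a control 1 (circle) below every other mouse of its genotype.

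Of the 8 genes, 1 passed in the LPS response of knockout mice (Cdkn1a, higher) and none fell, where 5.54% of all 12393 genes were called higher and 9.71% lower. In wild-type mice the count was again 1 higher (Cdkn1a) and none lower, beside 3.93% of all genes higher and 4.16% lower. Averaged over genotypes it was 1 higher (Cdkn1a), beside 8.52% of all genes higher and 14.3% lower. The median log2 difference of the 8 genes was 0.65 in knockout, where that of all genes was -0.06, and -0.18 in wild-type, where that of all genes was -0.03. Estimates were above 0 for 7 of 8 genes in knockout and 3 of 8 in wild-type. At an unadjusted p under 0.05, the counts were 2 of 8 in knockout, where 28.2% of all genes passed, and 1 of 8 in wild-type, where 21.4% did.

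Errfi1, a cytoplasmic inhibitor of the epidermal growth factor receptor that mitogens and glucocorticoids induce, had the largest log2 difference after Cdkn1a in knockout mice. Its brightest set (1416129_at) read 2311, 1867 and 2191 in knockout LPS mice, against 47, 660 and 706 in knockout controls. It read 1400, 1034 and 1404 in wild-type LPS mice, against 199, 1352 and 840 in wild-type controls. All knockout LPS mice were above all knockout controls, whereas in wild-type mice control 2 lay within the LPS range, and control 1 was the lowest in both genotypes. The log2 difference was 2.92 ± 0.95 in knockout (SE, n = 3 against 3, limma adjusted p = 0.0728) and 1.06 ± 0.95 in wild-type (adjusted p = 0.659), and neither passed. The second set (1419816_s_at) read 1213, 842 and 1120 in knockout LPS mice against 57, 335 and 181 in knockout controls, and 716, 563 and 860 in wild-type LPS mice against 73, 643 and 474 in wild-type controls. This set passed in knockout, at 2.79 ± 0.78 on the log2 scale (adjusted p = 0.0389), and averaged over genotypes, at 2.06 ± 0.55 (adjusted p = 0.0232), but not in wild-type alone, at 1.32 ± 0.78 (adjusted p = 0.427). Its knockout call was lost in 9 of 25 alternatives, 8 of which left out a single array: knockout control 1 or 3, or any of the 6 LPS mice (adjusted p up to 0.124). Its averaged call was lost without knockout LPS mouse 1 or 3 or wild-type LPS mouse 3 (adjusted p up to 0.0601).

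**Figure D2:**
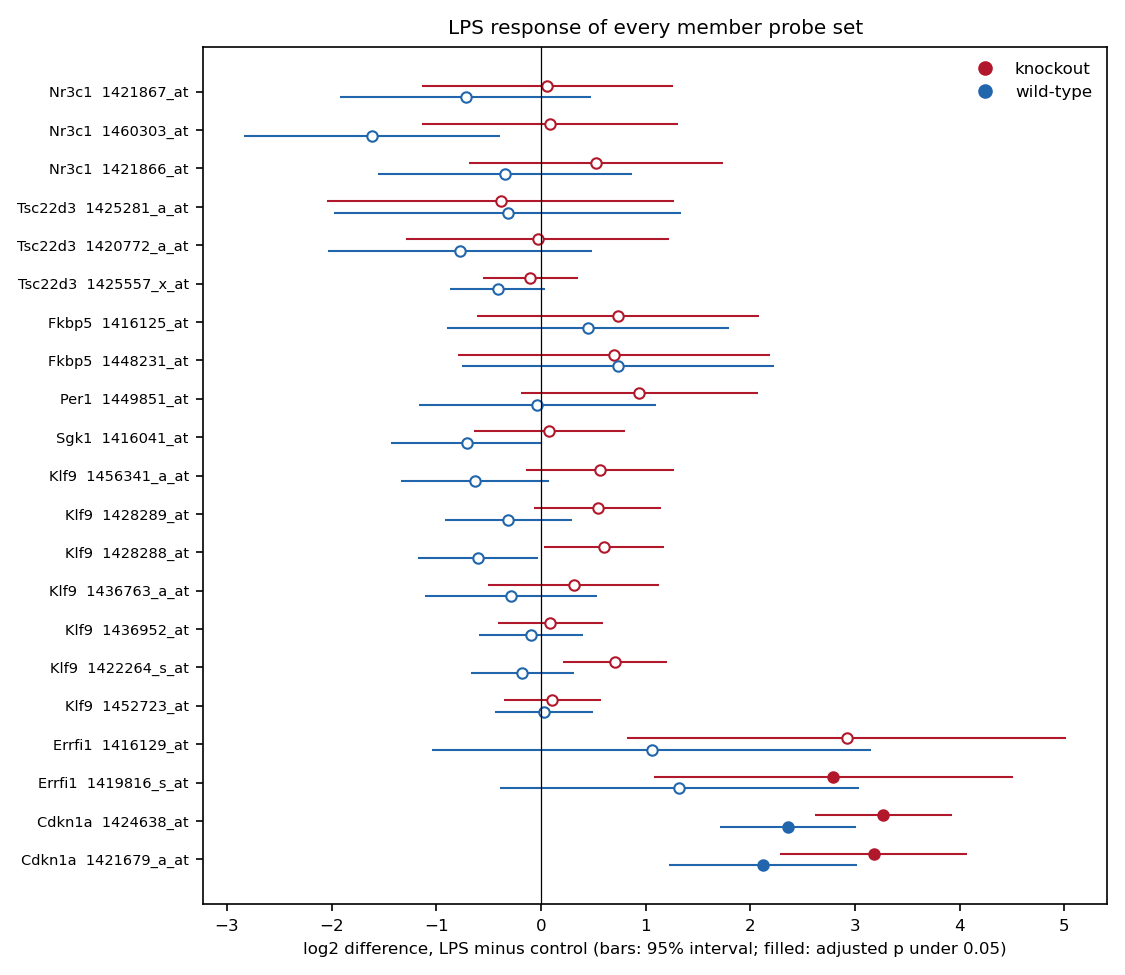
LPS response of all 21 probe sets of the 8 genes, as the log2 difference LPS minus control (horizontal axis), in knockout (upper mark of each row) and wild-type mice (lower mark). Bars are 95% intervals and filled marks passed at adjusted p under 0.05, which both Cdkn1a sets did in both genotypes and 1 Errfi1 set did in knockout mice.

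Tsc22d3, Fkbp5 and Per1 are classic fast targets of the receptor, and none passed the test after LPS on all 12 arrays. Tsc22d3, the leucine zipper protein that restrains NF-kB and AP-1, read 897, 927 and 1025 in knockout LPS mice on its brightest set (1425281_a_at), against 407, 2941 and 1593 in knockout controls. It read 1337, 1061 and 849 in wild-type LPS mice, against 410, 2226 and 2564 in wild-type controls. The LPS mice formed a narrow band between a low control 1 and high controls 2 and 3, in both genotypes. The log2 difference was -0.39 ± 0.75 in knockout (SE, n = 3 against 3, limma adjusted p = 0.824) and -0.32 ± 0.75 in wild-type (adjusted p = 0.903). Without the 2 control arrays numbered 1, a comparison chosen after seeing these values, it fell by 1.19 in knockout (adjusted p = 0.0239) and by 1.17 in wild-type (adjusted p = 0.0451), both log2. Without the 3 controls rich in pancreatic RNA the log2 difference of this set was -1.63 in knockout, set against knockout control 2 alone, and -1.17 in wild-type. The part of pancreatic RNA in this was not tested. Tsc22d3 lies on chromosome X, and the high wild-type controls 2 and 3 are the arrays of male pattern. In both exclusions the wild-type controls that remain are those 2, so sex pattern and LPS cannot be told apart in the wild-type values without controls 1. Knockout control 2, the highest of all at 2941, has the female pattern. The second Tsc22d3 set (1420772_a_at) read 875, 843 and 1032 in knockout LPS mice and 434, 837 and 2238 in knockout controls, against 1337, 927 and 801 in wild-type LPS mice and 797, 2500 and 2492 in wild-type controls. On this set it was knockout control 3 alone that stood high among the knockout mice. Knockout control 2, at 837, was below every knockout LPS mouse on it, so the knockout difference of -1.63 on the brightest set is not seen there. The remaining set, 1 that may cross-hybridise, stayed between 52 and 97.

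Fkbp5, a co-chaperone that lowers the receptor's affinity for hormone and so acts as its feedback inhibitor, read 594, 670 and 426 in knockout LPS mice on its brightest set (1416125_at), against 196, 241 and 778 in knockout controls. It read 1109, 961 and 745 in wild-type LPS mice, against 252, 1100 and 1130 in wild-type controls. LPS and control mice overlapped in both genotypes, since knockout control 3 and wild-type controls 2 and 3 were as high as or higher than LPS mice. The log2 difference was 0.74 ± 0.61 in knockout (SE, n = 3 against 3, limma adjusted p = 0.531) and 0.45 ± 0.61 in wild-type (adjusted p = 0.802). Without the 3 controls rich in pancreatic RNA it rose in knockout by 1.20 (adjusted p = 0.0415), set against knockout control 2 alone. The second set (1448231_at) read 209, 210 and 170 in knockout LPS mice and 91, 103 and 186 in knockout controls, against 407, 373 and 278 in wild-type LPS mice and 51, 382 and 469 in wild-type controls. Its groups overlapped too, with knockout control 3 inside the knockout LPS range.

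Per1, a repressor of the circadian clock that glucocorticoids and cyclic AMP signals induce, read 235, 403 and 229 in knockout LPS mice (1449851_at), against 62, 190 and 262 in knockout controls. It read 207, 236 and 160 in wild-type LPS mice, against 115, 292 and 251 in wild-type controls. Knockout LPS mouse 2 was the highest of the 12 and knockout control 1 the lowest, and groups overlapped in both genotypes. The log2 difference was 0.94 ± 0.51 in knockout (SE, n = 3 against 3, limma adjusted p = 0.298) and -0.04 ± 0.51 in wild-type (adjusted p = 0.995).

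Sgk1 and Klf9 did not pass the test in either genotype. Their estimates were below 0 in wild-type and above 0 in knockout mice, as were those of Nr3c1 and Per1. The sign for Sgk1 in knockout changed in 4 of 26 alternatives. Sgk1, the serum- and glucocorticoid-regulated kinase of ion transport and cell survival and the member with the inverted hexamer pair, read 360, 457 and 447 in knockout LPS mice (1416041_at), against 220, 531 and 534 in knockout controls. It read 418, 272 and 302 in wild-type LPS mice, against 448, 618 and 544 in wild-type controls. All wild-type LPS mice were below all wild-type controls, while the knockout groups overlapped around a low control 1. The log2 difference was 0.08 ± 0.33 in knockout (SE, n = 3 against 3, limma adjusted p = 0.920) and -0.71 ± 0.33 in wild-type (adjusted p = 0.274). Klf9, a zinc-finger transcription factor induced by glucocorticoid and thyroid hormone, read 399, 432 and 581 in knockout LPS mice on its brightest set (1456341_a_at), against 228, 298 and 459 in knockout controls. It read 357, 182 and 350 in wild-type LPS mice, against 438, 520 and 371 in wild-type controls. All wild-type LPS mice were again below all wild-type controls, and knockout control 3 lay within the knockout LPS range. Klf9 differed with LPS by 0.56 ± 0.32 in knockout (log2, SE, n = 3 against 3, limma adjusted p = 0.320) and by -0.63 ± 0.32 in wild-type (adjusted p = 0.333). Of the 7 Klf9 sets, 5 were above the intensity that 40% of all probe sets stay under. The estimates of all 7 were above 0 in knockout, and 6 of 7 were below 0 in wild-type. These sets read the same gene in the same mice, so their signs are not separate evidence. The set 1422264_s_at, which was dim at 15 to 31, came nearest to a call in knockout at 0.71 ± 0.22 (log2, SE, adjusted p = 0.0662).

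Errfi1, Tsc22d3, Fkbp5 and Per1 varied widely among untreated mice of a genotype, and their spread among LPS mice was within the ordinary range of genes. The pooled standard deviation within the control groups (log2) was 1.88 for Errfi1, 1.47 for Tsc22d3, 1.16 for Fkbp5 and 0.93 for Per1, where the median of the 8099 genes above the 40th percentile was 0.45. Those values stand at the 99.1th, 98.2th, 96.3th and 91.8th percentile of these genes. Within the LPS groups the same 4 genes had 0.21, 0.24, 0.32 and 0.38 in that order, around the median of those 8099 genes, which was 0.33. Nr3c1 was more variable than most genes in both, at 0.80 in the LPS groups (the 94.8th percentile) and 0.70 in the controls (the 81.6th). Cdkn1a, Klf9 and Sgk1 had 0.36, 0.40 and 0.55 in the controls and 0.40, 0.44 and 0.27 in the LPS groups.

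The control array numbered 1 was the lowest of its group for 7 of the 8 genes in knockout and for 6 of 8 in wild-type mice, and for 6 of 8 in both. Among the 8099 genes this held for 49.8% in knockout, 43.9% in wild-type and 23.6% in both. Errfi1 shows the size of it, at 47 in knockout control 1 against 660 and 706 in the other knockout controls, and at 199 in wild-type control 1 against 1352 and 840 in the other wild-type controls. These 2 arrays had the highest pancreatic list means (11.87 and 12.97, log2) and the lowest liver list means of the controls (4.64 and 4.54, where the other controls had 6.72 to 10.18). Erythroid markers were highest in knockout control 1, at 11.64, and next highest in wild-type control 2, at 10.49. Knockout control 1 also had the lowest T cell and B cell list means of the 6 controls, at 7.60 and 8.96, where the other controls had 8.43 to 9.19 and 9.78 to 10.12. With LPS both lists were below every control of the same genotype, except that the T cell list of knockout control 1 lay within the knockout LPS range, with the T cell list at 7.28 to 7.80 in knockout LPS mice and 7.09 to 7.84 in wild-type LPS mice, and the B cell list at 8.44 to 8.64 in knockout LPS mice and 8.75 to 9.34 in wild-type LPS mice. The replicate numbers of the labels name mice and no shared day or batch, and the part of these other cell types in the low values was not tested.

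**Figure D3:**
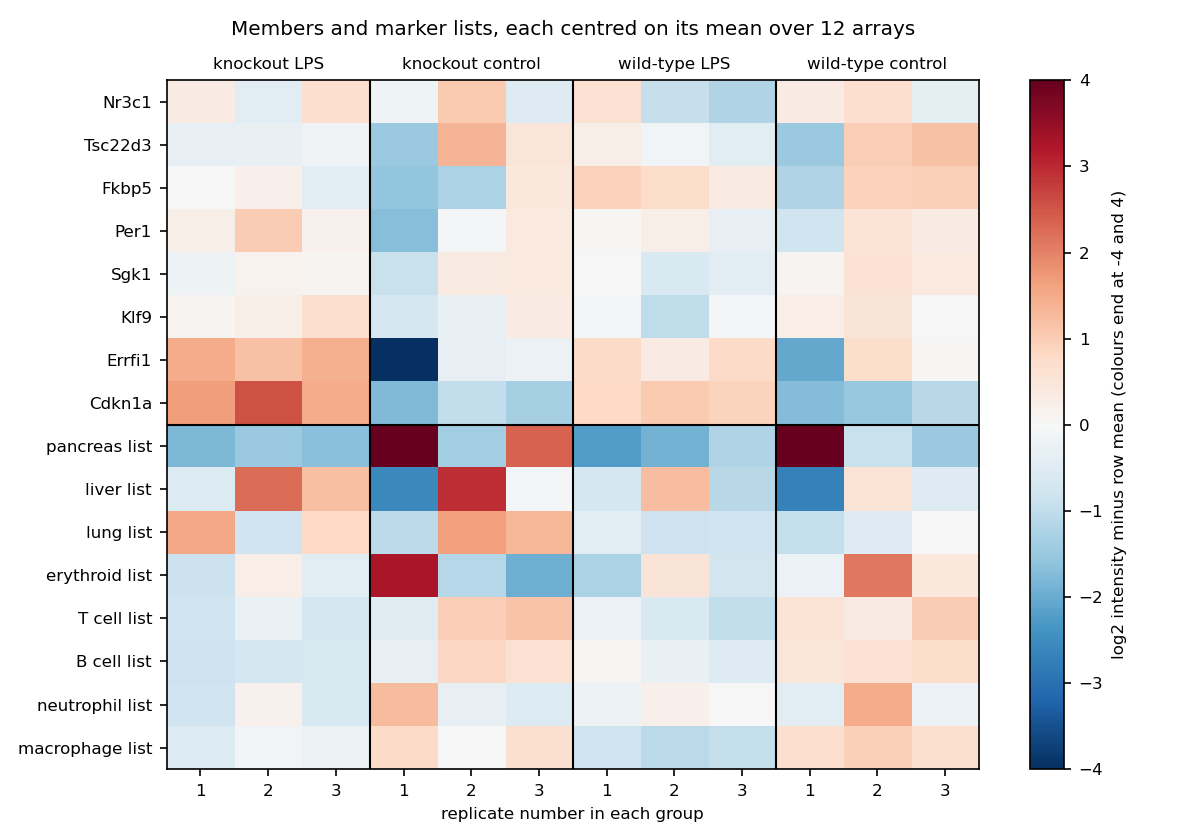
Log2 intensity of the 8 genes (upper rows) and mean log2 intensity of 8 marker lists (lower rows) on each array, minus the row's mean over 12 arrays, with colours ending at -4 and 4. In the controls numbered 1, Errfi1, Tsc22d3, Fkbp5 and Per1 are low while the pancreas list is high and the liver list low.

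Between genotypes no member passed. After LPS, 0 of 8 genes were called between mice labelled knockout and wild-type (limma, adjusted p under 0.05), and 0.363% of all genes were called. At an unadjusted p under 0.05 it was 2 of 8 genes, beside 10.2% of all genes. Cdkn1a came nearest, with all knockout LPS mice (894 to 1848) above all wild-type LPS mice (549 to 647). Its difference was 1.00 ± 0.30 on the log2 scale (SE, n = 3 against 3, limma adjusted p = 0.258), and 1.38 ± 0.41 on the second set (adjusted p = 0.253). With arrays weighted by their quality the call passed (adjusted p = 0.0293), and under no other alternative. Klf9 was also higher in all knockout LPS mice (399 to 581) than in all wild-type LPS mice (182 to 357), by 0.71 ± 0.32 (log2, SE, limma adjusted p = 0.557). Some other Klf9 sets, such as 1428289_at, overlapped. Errfi1 had 1867 to 2311 in knockout LPS mice and 1034 to 1404 in wild-type LPS mice, again without overlap, but its second set overlapped, and the difference of 0.74 ± 0.95 (log2, SE) was below its own error. The fit shares 1 estimate of the spread over the 4 groups, and the Errfi1 controls spread widely. Fkbp5 was the reverse, with 426 to 670 in knockout LPS mice below the 745 to 1109 of wild-type LPS mice, a log2 difference of -0.74 ± 0.61 (SE, limma adjusted p = 0.871). The share of all genes whose LPS groups separate by genotype was not counted, so a lack of overlap here is a description only. Fkbp5, Cdkn1a and Dusp1 are all on chromosome 17, so strain sequence carried along with the disrupted Dusp1 and the loss of Dusp1 cannot be told apart for Fkbp5 and Cdkn1a.

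In controls 0 of 8 genes were called between genotypes by limma, and 0% of all genes were called. At an unadjusted p under 0.05 it was 0 of 8, beside 1.42% of all genes. With the replicate number as a block among the control arrays it was again 0 of 8. The estimates were below 0 for 7 of 8 genes, with a median of -0.45 where that of all genes was 0.07 (log2). The largest were Errfi1 at -1.12 ± 0.95 and Fkbp5 at -1.03 ± 0.61 (log2, SE, n = 3 against 3), both within groups that overlapped. Over 27 alternatives the sign changed 6 times for Tsc22d3, 5 for Nr3c1, 3 for Errfi1 and Per1, 2 for Fkbp5 and Cdkn1a and 1 for Sgk1. Klf9 kept its sign. All knockout controls had the female pattern, and wild-type controls 2 and 3 the male one. Pancreatic RNA was high in knockout controls 1 and 3 and wild-type control 1, so both were uneven between the genotypes. The difference of the LPS response between genotypes was called for 0 of 8 genes by limma and for 0% of all genes. At an unadjusted p under 0.05 it was 1 of 8, beside 6.46% of all genes. That gene was Klf9, whose responses differed by 1.19 ± 0.45 on its brightest set (log2, SE, limma adjusted p = 0.832) and by 1.20 ± 0.37 on 1428288_at (adjusted p = 0.660). For Cdkn1a the responses differed by 0.91 ± 0.42 (95% interval -0.01 to 1.83). For Tsc22d3 the interval ran from -2.41 to 2.28, so a several-fold difference in either direction was not detectable with these 12 arrays.

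**Figure D4:**
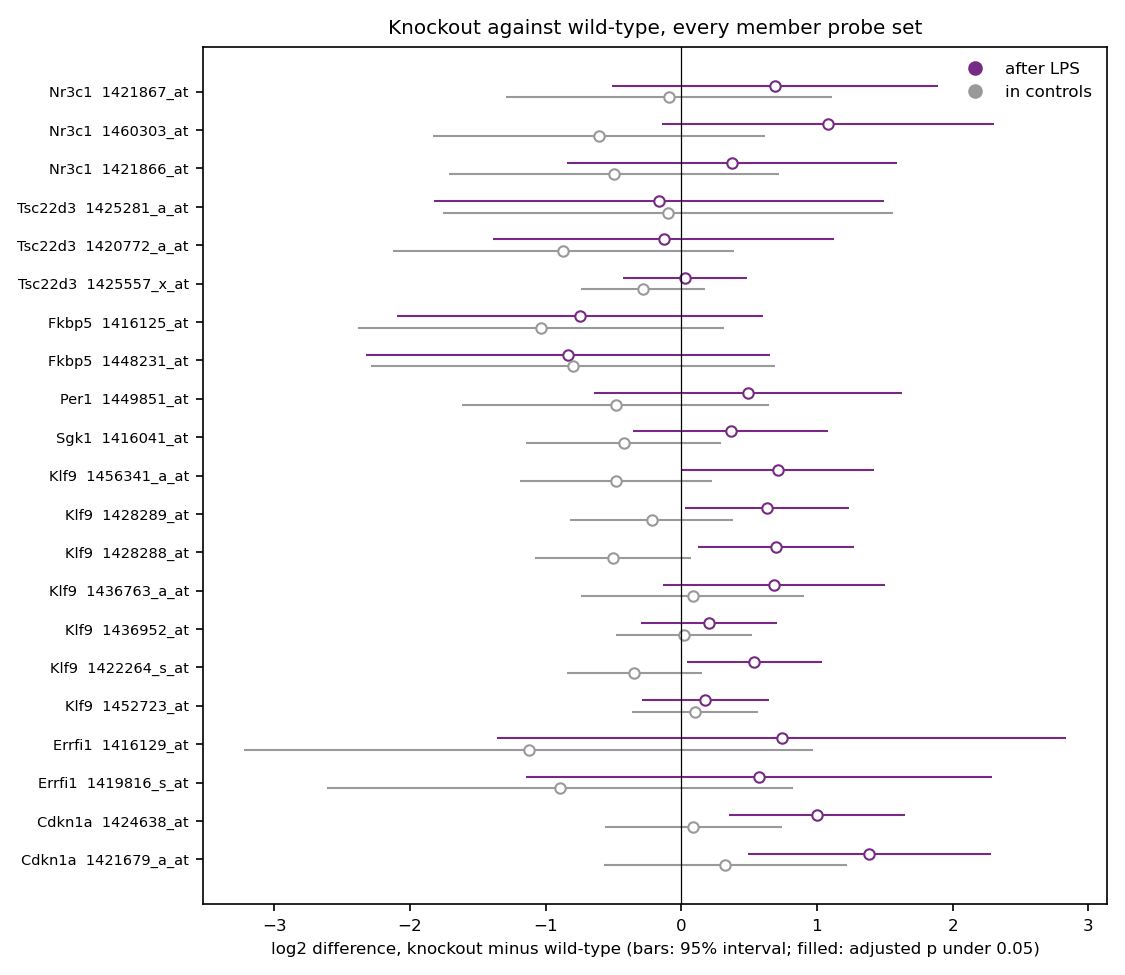
Difference between genotypes for all 21 probe sets, as log2 knockout minus wild-type (horizontal axis), after LPS (upper mark of each row) and in controls (lower mark), with 95% intervals. No mark passed at adjusted p under 0.05; after LPS the Cdkn1a and Klf9 sets lie right of 0 and the Fkbp5 sets left of it.

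The supply of active hormone to the receptor is set inside cells by the enzymes Hsd11b1, which regenerates corticosterone, and Hsd11b2, which inactivates it, and by the efflux pumps Abcb1a and Abcb1b. Of 5 measured genes of this kind, 2 rose and 1 fell in knockout LPS mice, and 0 rose and 1 fell in wild-type LPS mice, with median log2 differences of 0.52 in knockout and 0.36 in wild-type. Over all genes 5.54% rose and 9.71% fell in knockout and 3.93% rose and 4.16% fell in wild-type, with medians of -0.06 in knockout and -0.03 in wild-type. Hsd11b1 fell in both genotypes. It read 323, 281 and 428 in knockout LPS mice against 677, 715 and 768 in knockout controls, and 344, 279 and 279 in wild-type LPS mice against 845, 684 and 602 in wild-type controls. No LPS mouse reached a control, and the log2 difference was -1.09 ± 0.20 in knockout (SE, limma adjusted p = 0.00514) and -1.23 ± 0.20 in wild-type (adjusted p = 0.00474), kept in all 26 alternatives. Abcb1b rose in knockout mice by 1.75 ± 0.30 (log2, SE, adjusted p = 0.00363), with dim values of 84, 53 and 89 in knockout LPS mice against 19, 17 and 32 in knockout controls. In wild-type mice it was 0.63 ± 0.30 (adjusted p = 0.285), and the difference between the genotypes did not pass (adjusted p = 0.813). Hsd11b2 rose in knockout by 0.52 ± 0.14 (adjusted p = 0.0364), a call lost in 13 of 26 alternatives, at 38 to 44 in knockout LPS mice against 27 to 29 in knockout controls. In wild-type mice Hsd11b2 had 0.36 ± 0.14 (limma adjusted p = 0.186). Averaged over genotypes it rose by 0.44 ± 0.10 (adjusted p = 0.0107), a call lost in 1 of 25 alternatives.

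The chaperones that fold the receptor for hormone binding gave 0 rises and 1 fall among 8 measured genes in knockout LPS mice. Of all genes 5.54% rose and 9.71% fell there. In wild-type LPS mice limma called 0 of these 8, with 2 at an unadjusted p under 0.05, where 21.4% of all genes passed. Their median log2 difference was -0.45 in knockout and -0.09 in wild-type, and that of all genes -0.06 in knockout and -0.03 in wild-type. Dnajb1, a co-chaperone of Hsp70, was the gene called, and it fell by 2.26 ± 0.37 in knockout (log2, SE, limma adjusted p = 0.00322), where wild-type had a log2 difference of -1.32 ± 0.37 (adjusted p = 0.0628). It read 273, 410 and 252 in knockout LPS mice against 1006, 2476 and 1237 in knockout controls, and 352, 570 and 393 in wild-type LPS mice against 716, 1403 and 1229 in wild-type controls. Dnaja1, of the same family, fell averaged over genotypes by 1.62 ± 0.43 (log2, SE, adjusted p = 0.0226), a call lost in 5 of 25 alternatives. Of 8 measured coactivators and corepressors, limma called 0 in either genotype, with 3 at an unadjusted p under 0.05 in knockout and 1 in wild-type (28.2% and 21.4% of all genes), and medians of -0.19 in knockout and -0.08 in wild-type. Averaged over genotypes the coactivator Ncoa1 fell by 0.82 ± 0.18 (log2, SE, adjusted p = 0.00886).

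Other genes known as receptor targets, 33 measured of 35 listed, moved in both directions. In knockout LPS mice 10 rose and 3 fell, with a median log2 difference of 0.75, and in wild-type LPS mice 7 rose and 4 fell, with a median of 0.37. All genes had medians of -0.06 in knockout and -0.03 in wild-type, and the shares of all genes called are those given above for the members. The wild-type count of rises was 4 without wild-type control 1, wild-type LPS mouse 2 or wild-type LPS mouse 3, and that of falls 7 with arrays weighted by quality and 1 without the arrays of male pattern. The knockout count of falls was 5 without the controls rich in pancreatic RNA and 5 without the controls numbered 1. The metallothionein Mt1, a metal-binding protein induced by zinc, glucocorticoids and acute-phase signals, read 6709, 8439 and 6574 in knockout LPS mice against 951, 639 and 510 in knockout controls, and 4260, 4950 and 4374 in wild-type LPS mice against 324, 690 and 451 in wild-type controls. Mt1 rose by 3.41 ± 0.29 in knockout (log2, SE, limma adjusted p = 7.03e-05) and by 3.28 ± 0.29 in wild-type (adjusted p = 0.000141). Its neighbour in kind Mt2 rose by 3.78 ± 0.51 in knockout and 4.07 ± 0.51 in wild-type, and Lcn2, an iron-scavenging acute-phase protein, by 3.43 ± 0.55 in knockout and 4.28 ± 0.55 in wild-type. Smaller rises in both genotypes were those of the transglutaminase Tgm2, at 1.51 ± 0.23 in knockout and 1.69 ± 0.23 in wild-type, and the transcription factor Cebpb, at 2.28 ± 0.41 in knockout and 1.95 ± 0.41 in wild-type. The wild-type call of Cebpb was lost on leaving out control 1, LPS mouse 2 or LPS mouse 3 (adjusted p up to 0.0746). Dusp1 itself, whose values stand above, rose by 1.87 ± 0.41 in knockout (log2, SE, limma adjusted p = 0.0132) and by 1.55 ± 0.41 in wild-type (adjusted p = 0.0487), calls lost in 3 and 15 of 26 alternatives.

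Lpin1 and Cd163 fell in both genotypes. Lpin1, a phosphatidate phosphatase, read 42, 78 and 48 in knockout LPS mice against 247, 210 and 165 in knockout controls, and 60, 56 and 39 in wild-type LPS mice against 161, 272 and 292 in wild-type controls. It fell by 1.92 ± 0.31 in knockout (log2, SE, limma adjusted p = 0.0027) and by 2.20 ± 0.31 in wild-type (adjusted p = 0.0022), the wild-type call being lost without the arrays of male pattern (adjusted p = 0.0654). Cd163, the haemoglobin receptor of red pulp macrophages and a gene that glucocorticoids induce in monocytes, fell by 1.90 ± 0.41 in knockout (adjusted p = 0.013) and by 2.72 ± 0.41 in wild-type (adjusted p = 0.0037), the knockout call being lost without knockout LPS mouse 1 (adjusted p = 0.0571). Cd163 was dim after LPS, with 14, 20 and 15 in knockout LPS mice against 48, 65 and 70 in knockout controls. Wild-type LPS mice had 11, 14 and 14 against 38, 148 and 109 in wild-type controls. At such low values rounding matters, so the size of the fall is coarse. The mean of the red pulp macrophage list, which holds Cd163 itself, was lower too. It stood at log2 levels of 8.92 to 9.36 in knockout LPS mice against 9.51 to 10.25 in knockout controls. For wild-type mice it was 8.41 to 8.69 with LPS against 10.11 to 10.45 in wild-type controls. The part of red pulp macrophages in the fall of Cd163 was not tested.

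Klf6 and Klf4, transcription factors of the family of Klf9, were on the same list. Klf6 rose in knockout LPS mice by 2.02 ± 0.29 (log2, SE, limma adjusted p = 0.00141) and had 0.43 ± 0.29 in wild-type (adjusted p = 0.508), with 790, 589 and 982 in knockout LPS mice against 461, 235 and 396 in wild-type LPS mice. Its difference after LPS, 1.14 ± 0.29, did not pass (adjusted p = 0.181). Klf4 was the 1 gene of the 33 called between genotypes after LPS, and it lies outside the rule for named genes and was chosen after its values were seen. It read 92, 167 and 95 in knockout LPS mice and 85, 77 and 162 in knockout controls, against 36, 29 and 25 in wild-type LPS mice and 113, 157 and 153 in wild-type controls. The wild-type LPS mice stood apart from the other 9. Knockout against wild-type after LPS gave 1.94 ± 0.32 (log2, SE, adjusted p = 0.0406), a call lost in 13 of 26 alternatives, and the difference of the 2 LPS responses, 2.39 ± 0.45, did not pass (adjusted p = 0.265). In wild-type mice Klf4 fell by 2.23 ± 0.32 with LPS (adjusted p = 0.00268), a call lost without the arrays of male pattern (adjusted p = 0.0726).

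**Figure D5:**
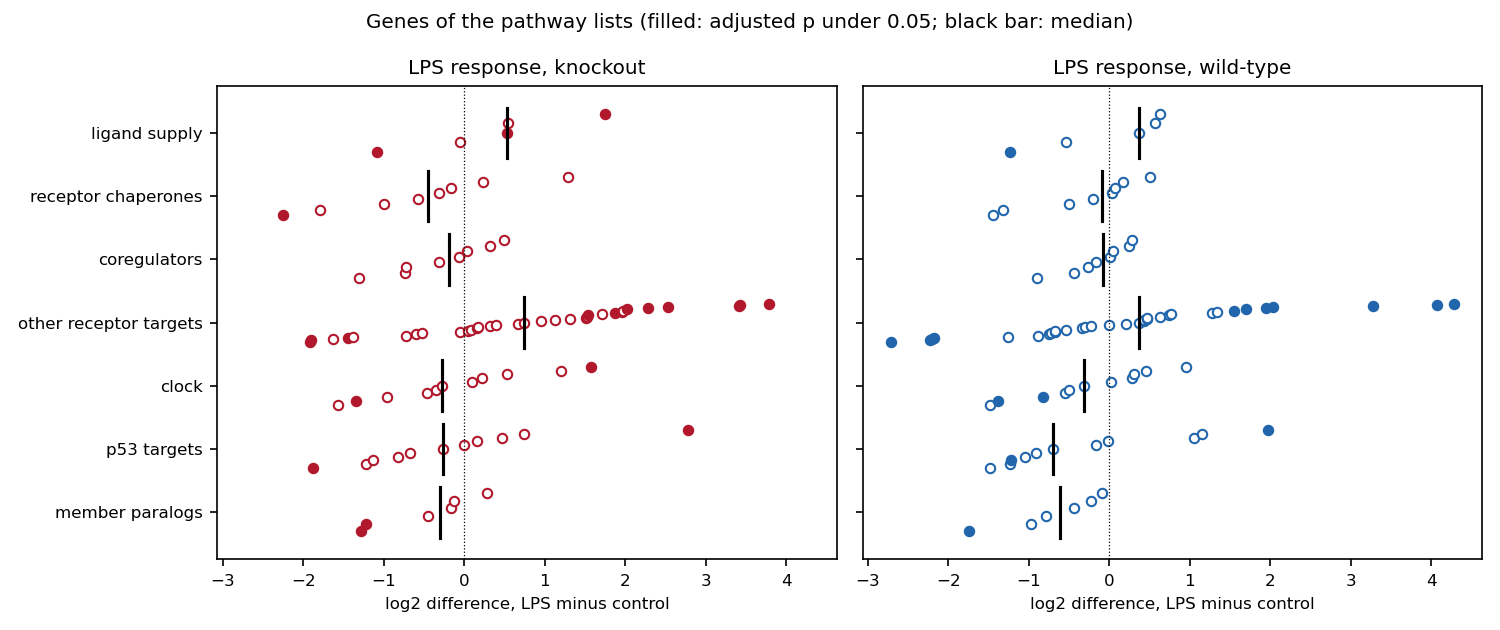
LPS response of every measured gene of the 7 related lists (rows), as the log2 difference LPS minus control (horizontal axis), in knockout mice (left) and wild-type mice (right). Filled marks passed at adjusted p under 0.05 and black bars are list medians; the other receptor targets spread from falls such as that of Cd163 to rises of over 3 on the log2 scale for Mt1, Mt2 and Lcn2.

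Because Per1 belongs to the clock and Cdkn1a to the p53 response, the other genes of those systems were set beside them. Of 11 measured clock genes, 1 rose and 1 fell in knockout LPS mice, and 0 rose and 2 fell in wild-type LPS mice, with medians of -0.27 in knockout and -0.32 in wild-type. Over all genes 5.54% rose and 9.71% fell in knockout, and 3.93% rose and 4.16% fell in wild-type. The medians of all genes were -0.06 in knockout and -0.03 in wild-type. Per3, a paralogue of Per1, fell by 1.35 ± 0.36 in knockout (log2, SE, limma adjusted p = 0.0313) and by 1.38 ± 0.36 in wild-type (adjusted p = 0.0434), calls lost in 9 and 15 of 26 alternatives. It was dim after LPS, at 20 to 28 in knockout LPS mice against 35 to 112 in knockout controls and 22 to 27 in wild-type LPS mice against 51 to 79 in wild-type controls. Arntl, the activator of the clock, fell in wild-type by 0.82 ± 0.18 (adjusted p = 0.0236, lost in 6 of 26 alternatives) and had -0.46 ± 0.18 in knockout (adjusted p = 0.141). Bhlhe40, a clock repressor that cytokines induce, rose in knockout by 1.58 ± 0.35 (adjusted p = 0.0145, lost in 3 of 26) and had 0.95 ± 0.35 in wild-type (adjusted p = 0.156). Averaged over genotypes, Arntl fell by 0.64 ± 0.13 (limma adjusted p = 0.00547) and Bhlhe40 rose by 1.26 ± 0.25 (adjusted p = 0.00463). Both averaged calls were kept in 25 of 25 alternatives. The time of day at killing is not given, so its part and that of LPS cannot be told apart for clock genes under any alternative.

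Of 11 measured p53 targets other than Cdkn1a, 1 rose and 1 fell in each genotype. Over all genes 5.54% rose and 9.71% fell in knockout, and 3.93% rose and 4.16% fell in wild-type. The kinase gene Plk2 rose by 2.78 ± 0.32 in knockout (log2, SE, limma adjusted p = 0.000442) and by 1.97 ± 0.32 in wild-type (adjusted p = 0.00508). It read 622, 777 and 611 in knockout LPS mice against 69, 171 and 78 in knockout controls, and 437, 273 and 357 in wild-type LPS mice against 76, 100 and 93 in wild-type controls. Zmat3, an RNA-binding protein, fell by 1.87 ± 0.19 in knockout (adjusted p = 0.00022) and by 1.23 ± 0.19 in wild-type (adjusted p = 0.00408). Its wild-type call was lost without the arrays of male pattern or with sex pattern in the model (adjusted p up to 0.0838). The median of the list was -0.26 in knockout and -0.71 in wild-type, and that of all genes was -0.06 in knockout and -0.03 in wild-type. Averaged over genotypes, 1 gene of the list rose and 2 fell, where 8.52% of all genes rose and 14.3% fell. The falls were those of Zmat3 and of Btg2. Btg2 fell by 0.96 ± 0.30 (log2, SE, limma adjusted p = 0.0422), a call lost in 15 of 25 alternatives. Among 6 measured paralogues of the members, 2 fell in knockout and 1 in wild-type, with medians of -0.31 in knockout and -0.61 in wild-type. Of all genes 9.71% fell in knockout and 4.16% in wild-type. Tsc22d1 fell by 1.23 ± 0.26 in knockout (log2, SE, adjusted p = 0.0119) and by 1.75 ± 0.26 in wild-type (adjusted p = 0.00341), with 580, 837 and 681 in knockout LPS mice against 1215, 1712 and 2037 in knockout controls, and 647, 656 and 420 in wild-type LPS mice against 1569, 1821 and 2364 in wild-type controls. The knockout call of Tsc22d1 was lost when knockout LPS mouse 1 was left out (adjusted p = 0.0586), and the wild-type call without the arrays of male pattern or with sex pattern in the model (adjusted p up to 0.0756). Tsc22d4 fell in knockout by 1.28 ± 0.31 (adjusted p = 0.0212, lost in 6 of 26 alternatives, up to 0.109) and had -0.79 ± 0.31 in wild-type (adjusted p = 0.186).

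The genes most like Cdkn1a over the 12 arrays were Maff, Tubb6 and Hbegf, by the root mean square difference of log2 values after each gene was centred on its own mean. That difference was 0.24, 0.30 and 0.30 for Maff, Tubb6 and Hbegf, where the median over 8098 genes was 1.61. A gene that did not vary would stand at 1.48, the root mean square of Cdkn1a about its own mean, so the median mostly reflects the size of the Cdkn1a rise. Maff is a small bZIP transcription factor, Tubb6 a beta-tubulin and Hbegf a ligand of the epidermal growth factor receptor, the receptor that Errfi1 inhibits. Their own LPS responses were 3.01 in knockout and 2.60 in wild-type for Maff, 2.99 in knockout and 1.98 in wild-type for Tubb6, and 2.90 in knockout and 2.24 in wild-type for Hbegf (log2). The genes most like Nr3c1 were Snx2 at 0.20, D930016D06Rik at 0.25 and Uhrf1bp1l at 0.25, where the median over 8098 genes was 0.86. A gene that did not vary would stand at 0.68 from Nr3c1. These are descriptions of likeness on these arrays and carry no test.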

How the data were processed

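Spleen RNA of 12 mice was measured on Affymetrix arrays. The authors deposited linear intensity values on 22690 probe sets, made with RMA from the R affy package per the labels (background correction, normalisation and summarisation over probes, which shrinks differences of dim sets and assumes similar value distributions). No scanner files were used. The values are whole numbers, so rounding matters below about 20 units.

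Here log2 of the deposited intensity was modelled by lmFit and eBayes (limma 3.58.1, R 4.3.3) on 4 group means (8 residual and 2.722 prior degrees of freedom), with 6 contrasts, two-sided, and Benjamini-Hochberg adjustment over 22626 probe sets without 64 control rows. Adjusted p under 0.05 was called. A gene was represented by the set of highest mean intensity that names it alone, leaving aside _x_at sets where another exists, which gave 12393 genes. SDs and SEs are on the log2 scale. The precision is limited by 3 arrays a group. Arrays were grouped by their labels, and no 2 arrays held identical values. Same-numbered arrays deviated together between the control groups (correlations 0.136 to 0.277, 3 of 3 over 0.1) and not consistently between others, from the data rather than the labels, so a replicate block was also fitted. Sharing a number was not needed for this, as knockout control 1 and wild-type control 2 stood at 0.175. The code was tested on simulated data.

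The genes and lists were chosen with earlier results of these data known. Named list genes were those called in any contrast, up to 8 a list by smallest adjusted p, and Dusp1 always. Likeness used the 3 nearest genes for called members and Nr3c1. Alternatives varied normalisation, filtering, weighting, prior, samples and covariates. Promoter windows were matched to the genes by symbol, and no sequence was used for Nr3c1.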

Additional observations from a re-analysis of the deposited data

How the results depend on the processing

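Over 27 alternatives and 1240 values for the brightest sets of the 8 genes, 0 calls were lost, 0 called values reversed, 30 uncalled values passed and 71 uncalled values changed sign. Cdkn1a was called in every alternative for LPS in knockout (26 of 26, log2 2.90 to 3.49), in wild-type (26 of 26, 2.21 to 2.64) and averaged over genotypes (25 of 25, 2.56 to 2.98). The count of members called for LPS in knockout was 2 (Errfi1 with Cdkn1a) with arrays shifted to a common median, with dim sets left out, with array weights and with the mean of all sets of a gene. Of all genes, 1690, 1842, 2504 and 1900 were called there, against 1889 in the main fit. Without the controls numbered 1, an alternative chosen after seeing the data, it was 3 (Tsc22d3 lower, Errfi1 and Cdkn1a higher), where 2073 genes were called. In wild-type it was 2 in that exclusion (Tsc22d3 lower, Cdkn1a higher), where 960 genes were called, against 1002 in the main fit. Removing the arrays with pancreas RNA leaves a lone knockout control, and removing those of male pattern a lone wild-type control, so their counts are not given. Averaged over genotypes it was 2 (Errfi1 with Cdkn1a) with the common median, without dim sets, with array weights and with the mean of sets. Of all genes, 2733, 2679, 3720 and 2851 were called there, against 2833 in the main fit. It was also 2 with sex pattern as a covariate, where 1973 genes were called. Without the controls numbered 1 it was 4, where 2956 genes were called (Tsc22d3 lower, Sgk1 at -0.59, adjusted p = 0.0263, Errfi1 at 0.94, adjusted p = 0.00533, and Cdkn1a). Without the arrays with pancreas RNA, Tsc22d3 stood at -1.40 and Errfi1 at 0.96 (log2). Leaving out 1 array at a time, the averaged count was 1 to 3. It was 3 without knockout control 1 (Sgk1 at -0.53, adjusted p = 0.0342, and Errfi1 at 1.34, adjusted p = 0.0450), where 3072 genes were called. It was 2 without knockout control 2 or 3, where 2701 and 2561 genes were called. Knockout against wild-type after LPS gave 2 with array weights (Nr3c1 at 1.22, adjusted p = 0.0470, and Cdkn1a), where 1280 genes were called against 45. In controls without the arrays with pancreas RNA, Fkbp5 stood at -2.21 (log2). That compares a lone control of female pattern with 2 of male pattern, so genotype and sex cannot be told apart in it. The cause of these shifts was not tested. With the replicate number as a replicate block, the averaged count was 2 (Errfi1, adjusted p = 0.0423), where 2697 genes were called. The numbers name mice, and over 18 pairs of same-numbered arrays the correlation of deviations ran from -0.584 to 0.629, with 6 over 0.1. Between the control groups all 3 were over 0.1 (0.136 to 0.277), and a replicate block on the control arrays, chosen after seeing the data, gave 0 members as before. Between no other groups were all 3 over 0.1. A control pair of different number, knockout control 1 with wild-type control 2, stood at 0.175. The main limits are 3 mice a group, other tissues' RNA, mixed sex pattern among wild-type controls, and whole-number values that leave dim sets coarse. Pancreatic RNA was high in some controls, and liver and lung list levels varied among LPS mice too.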
